A study of Mus musculus with 16 samples.

Results

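The question addressed here was how thymic lymphomas that carried both the Lck-Dlx5 and the Lck-MyrAkt2 transgenes differed in gene expression from lymphomas that carried Lck-Dlx5 alone. It used 7 of the 16 arrays of the series, 4 from double transgenic tumors and 3 from Lck-Dlx5 lymphomas, and was described across 12933 tested genes of 22184 with an array feature of their own. The 3 Lck-Dlx5 lymphomas came from mice labelled 9 months old, 1 each of founder lines 63 (replicate 1), 47 (replicate 2) and 86 (replicate 3). The 4 double transgenic tumors, genotype Lck-Dlx5;Lck-MyrAkt2, came from mice labelled 2 months old. Of these, replicates 1 and 2 had the Dlx5 transgene of founder line 47 crossed to Akt2 line 420, and replicates 3 and 4 had the Dlx5 transgene of line 86, with the Akt2 line not given. The other 9 arrays, used only for the spread and as levels side by side, were 3 of thymic T cells from wild-type (WT) littermates aged 9 months and 3 each of Lck-MyrAkt2 tumors of lines 420 and 72 aged 5 months. Strain was not given, and each tumor was 1 primary thymic mass of 1 mouse, so the 4 and the 3 arrays are separate animals. Age, and the share of founder lines, differ between the 2 groups with the Akt2 transgene, and their parts cannot be told apart from it.

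Dlx5 is a homeobox transcription factor that acts in bone and forebrain development and is not normally made by thymocytes. MyrAkt2 is Akt2 carrying a myristoylation signal, which anchors the kinase to the membrane and keeps it active, and Akt kinases act downstream of phosphoinositide 3-kinase on growth, glucose use and survival. The promoter of Lck, on in immature T cells, drove both transgenes, and Notch signaling and the Akt pathway are the routes most often activated in T-cell leukemia and lymphoma.

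The deposited values are log2 levels, and a difference of 1 is a 2-fold change. Double transgenic tumors had 178 genes called higher and 63 called lower than Lck-Dlx5 lymphomas at an adjusted p under 0.05, so that 241 of the 12933 genes tested, or 1.86%, were called (limma on all 16 arrays, Benjamini-Hochberg adjustment over all genes tested). Outside predicted genes, small RNAs and olfactory or vomeronasal receptors, the largest called increases were of Ccnd2, the cyclin D2 gene (3.76), and Zfp975 (2.84). Receptors of the T-cell surface (Cd226, Btla), the kinase genes Stk39 and Sgk3 and, lower in rank, the transporter gene Abcc1 were among the 14 largest. With the same classes left out, the largest called decreases were of Btbd35f1 and the integrin gene Itga9. The Wnt antagonist gene Nkd1 and, lower in rank, the Notch target Heyl were among the 14 largest. Among the 241, the levels of the 2 groups did not overlap for 238, against 1740 of all 12933 genes, or 13.5% (10.1% higher in the double transgenic tumors and 3.4% lower). A difference of at least 1 was seen in 68 of the 241, or 0.526% of genes tested, 47 of them higher. Over all genes the median difference was 0.066 and 61.5% lay above 0. The count rests on the arrays outside the comparison. With only the 7 arrays compared, 0 genes passed and 1822 had an unadjusted p under 0.05. Without the WT arrays 18 passed. With medians of the arrays made equal 369 passed, 315 higher and 54 lower, so that 85.4% of calls were higher against 73.9% as reported. With no filter on dim features 605 passed, 251 higher and 354 lower, or 41.5% higher. Founder line as a term gave 1 call and founder line as a random block 0, none of them among the 241. The Dlx5 founder line is known only for the 7 arrays compared, where 0 genes passed without such a term. These counts are therefore to be read beside that 0, and do not show that founder line removed the calls. The count of 241 also rests on single tumors: leaving out 1 array at a time gave 14 to 787 calls, the fewest without double transgenic replicate 4 and the most without replicate 1.

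Promoters of the genes that carry these differences are shown because they could be searched for the core motifs of Dlx factors (TAATT), FoxO factors (TGTTTAC), E-box factors (CACGTG) and Rbpj, the DNA-binding partner of Notch (TGGGAA), on both strands. RefSeq promoters in build GRCm38.p6 ran from 250 bases before to 50 after a start site, and 17 of the 28 genes with the largest called changes had one. Capitals mark a motif or its reverse complement, and runs of capitals can hold overlapping matches, as TAATT and its complement AATTA share letters.
Btla promoter, chr16:45224087-45224386, plus strand: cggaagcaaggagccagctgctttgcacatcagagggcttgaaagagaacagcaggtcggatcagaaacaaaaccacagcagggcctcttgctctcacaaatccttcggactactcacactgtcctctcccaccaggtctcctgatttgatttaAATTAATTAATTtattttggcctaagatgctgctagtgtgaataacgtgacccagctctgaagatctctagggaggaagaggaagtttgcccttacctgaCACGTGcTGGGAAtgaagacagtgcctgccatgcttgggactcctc
Igf2bp3 promoter, chr6:49214905-49215204, minus strand: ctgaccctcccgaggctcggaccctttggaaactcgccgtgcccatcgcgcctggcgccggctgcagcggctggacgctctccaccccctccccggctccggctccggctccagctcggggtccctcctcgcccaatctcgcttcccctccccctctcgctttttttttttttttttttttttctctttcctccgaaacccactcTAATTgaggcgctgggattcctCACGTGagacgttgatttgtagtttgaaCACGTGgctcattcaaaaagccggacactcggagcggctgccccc
Nkd1 promoter, chr8:88527383-88527682, plus strand: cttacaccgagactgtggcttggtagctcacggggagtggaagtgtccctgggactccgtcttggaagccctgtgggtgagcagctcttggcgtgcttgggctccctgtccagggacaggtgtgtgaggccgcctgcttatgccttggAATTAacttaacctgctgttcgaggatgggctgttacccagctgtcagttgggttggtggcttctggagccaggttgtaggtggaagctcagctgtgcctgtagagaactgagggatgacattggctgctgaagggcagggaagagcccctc
The Btla window held TAATT or its complement 4 times in 1 run, with 1 CACGTG and 1 TGGGAA near the start site. Igf2bp3, an RNA-binding protein gene called higher, had a window that held CACGTG 2 times and TAATT 1 time, and the Nkd1 window TAATT 1 time. The windows printed all held TAATT and do not stand for the rest. It was absent from every window of Zfp975, Stk39, Papss2, H2-Aa, Decr2, Itga9, Crip1 and Scp2d1. For 2 genes the only window belonged to a start site well inside the gene. The Itga9 window began at 118711442 in a gene that starts at 118606709, and the Nkd1 window at 88527383 in a gene that starts at 88521342. These 2 windows say nothing of the promoter at the gene's first start site. TAATT was in 16.7% of 12737 promoters of tested genes, in 18.4% of 190 promoters of genes called higher and in 38.3% of 47 of genes called lower. CACGTG was in 9.77%, 11.6% and 4.26%, TGGGAA in 23.1%, 21.1% and 21.3%, and TGTTTAC in 2.61%, 0% and 10.6% of the same sets. These shares are a description of letters in the windows, not of binding. The sets also differ in the kinds of genes they hold. Predicted genes, small RNAs and olfactory or vomeronasal receptors were 31.7%, 11.1% and 19% of the genes called lower, against 7.05%, 1.73% and 0.959% of all tested. The part of these classes in the motif shares was not tested, and TGTTTAC in the genes called lower was 5 promoters.

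All arrays were alike in overall level, with medians of 6.32 to 6.46. The 25th percentile was 5.21 to 5.35 in the double transgenic arrays and 5.38 to 5.45 in the Lck-Dlx5 arrays, so dim features lay lower in the double transgenic tumors on every array. Across genes, arrays correlated at 0.948 to 0.964 within Lck-Dlx5 lymphomas, at 0.909 to 0.98 within double transgenic tumors and at 0.992 to 0.993 within WT. The median SD of a gene was 0.181 in Lck-Dlx5, 0.207 in double transgenic and 0.086 in WT samples. Thymocyte markers (Cd3e, Cd3d, Cd3g, Thy1, Ptcra, Cd4, Cd8a and Trat1, 8 of 8 tested) had a mean level of 10.85 to 11.15 in Lck-Dlx5 and 10.73 to 11.35 in double transgenic tumors, beside 11.54 to 11.65 in WT (0 called by limma, 2 at an unadjusted p under 0.05 beside 20.8% of all genes), so T-cell transcripts were high on all 7 arrays. Xist, which marks female cells, lay at 12.42 in Lck-Dlx5 replicate 1 and at 12.57 and 12.37 in double transgenic replicates 3 and 4, and at 4.94 to 5.73 in the other 4 tumors. Kdm5d, on the Y chromosome, lay at 9.14 in Lck-Dlx5 replicate 2 and at 8.99 and 8.67 in double transgenic replicates 1 and 2, and at 3.24 to 4.08 in the rest. Lck-Dlx5 replicate 3 was low for both. Xist and Kdm5d therefore divided the double transgenic tumors as founder line did. Uty, also on the Y chromosome, lay at 9.34 and 8.64 in replicates 1 and 2 and at 4.71 and 4.09 in replicates 3 and 4. The Y gene Eif2s3y divided them less clearly, at 6.78 and 5.25 against 4.64 and 4.62. It lay at 10.06 in Lck-Dlx5 replicate 2, and the cause of its low level in replicates 1 and 2 was not tested. Without the genes of X and Y, 245 genes were called.

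The transgenes come first. Dlx5 lay at 11.45, 12.08 and 12.3 in the Lck-Dlx5 lymphomas and at 12.68, 11.93, 12.97 and 12.83 in the double transgenic tumors, beside a WT mean of 5.76. It was far above WT in all 7 tumors, and the difference between the tumor groups of 0.66 ± 0.25 (SE; adjusted p = 0.148) did not pass. Akt2 lay at 9.55, 9.46 and 9.63 in the Lck-Dlx5 lymphomas and at 9.58, 9.61, 10.11 and 10.04 in the double transgenic tumors, beside 9.8 in WT. The double transgenic tumors of line 47 were at the level of the Lck-Dlx5 lymphomas and those of line 86 stood above it. The difference was 0.29 ± 0.13 (adjusted p = 0.2), and within the double transgenic tumors line 47 was lower than line 86 by 0.48 (adjusted p = 0.0258). The deposited values do not separate transcripts of the transgene from those of the mouse's own Akt2 gene.

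Genes that the study names in its account of these tumors gave 0 calls by limma among 15 tested (6 at an unadjusted p under 0.05), and 3 of them had groups that did not overlap, beside 13.5% of all genes. Notch1, a receptor of the Notch pathway, lay at 11.42, 11.61 and 11.68 in Lck-Dlx5 lymphomas and at 11.43, 11.69, 9.6 and 10.07 in double transgenic tumors, beside 10.46 in WT. Notch3, a receptor of the same family, lay at 10.09, 9.87 and 9.96 and at 9.73, 8.93, 7.41 and 8.59, beside 8.39 in WT. Both receptors were lowest in the tumors of line 86, where Notch1 lay below the WT mean on both arrays, and for Notch3 the 2 groups did not overlap. Their differences were -0.87 ± 0.68 (adjusted p = 0.505) and -1.31 ± 0.65 (adjusted p = 0.267). Hes1, a Notch target, lay at 8.51, 6.95 and 8.88 against 8.21, 8.93, 6.67 and 7.34. Myc, the growth-promoting transcription factor, lay at 10.47, 10.8 and 10.88 against 10.96, 11.1, 11.34 and 11.01. The Hes1 groups overlapped widely, and the Myc groups did not overlap but differed by only 0.38 ± 0.23 (adjusted p = 0.366). Tet2, a 5-methylcytosine dioxygenase, spread over 8.6, 7.16 and 5.66 in the Lck-Dlx5 lymphomas and over 9.33, 8.36, 8.81 and 8.44 in the double transgenic tumors. Its difference of 1.6 ± 0.52 (adjusted p = 0.105) passed only when Lck-Dlx5 replicate 1 was left out (2.32, adjusted p = 0.0377) among the 7 arrays left out in turn. The remaining ones ran from Irs2, an insulin receptor substrate, at -0.67 to Xaf1, an interferon-induced gene of apoptosis, at 0.82, with adjusted p values of 0.17 to 0.955.

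The largest difference of all belonged to Ccnd2, whose product drives G1 progression with Cdk4 and Cdk6. It lay at 5.78, 5.38 and 6.08 in the Lck-Dlx5 lymphomas and at 7.9, 8.73, 10.76 and 10.63 in the double transgenic tumors. The Lck-Dlx5 lymphomas were the low group, since WT thymic T cells lay at 10.19, and the tumors of line 86 were near the WT level with those of line 47 in between. The difference was 3.76 ± 0.78 (adjusted p = 0.0347), or 13.5-fold. Among 17 tested cyclins and inhibitors of G1, Ccnd2 was the 1 called, beside 1.38% of all genes called higher. Ccnd1, the gene of the related cyclin D1, lay at 9.36, 9.84 and 9.68 against 9.88, 10.45, 8.99 and 9.48, so its groups overlapped and its difference was 0.07 ± 0.49.

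Kinase genes were among the genes called higher. Sgk3 encodes a serum and glucocorticoid regulated kinase related to Akt that responds to phosphoinositide 3-kinase. It lay at 5.96, 6.23 and 6.05 in the Lck-Dlx5 lymphomas and at 7.72, 7.87, 8.85 and 8.81 in the double transgenic tumors, beside 9.19 in WT. Every double transgenic tumor stood more than 1 log2 unit above every Lck-Dlx5 lymphoma, and the difference was 2.23 ± 0.32 (adjusted p = 0.00901). Stk39, a kinase of the ion transport pathway known as SPAK, lay at 6.7, 6.52 and 6.49 against 8.19, 8.54, 9.62 and 9.15, a difference of 2.3 ± 0.38 (adjusted p = 0.0165). It too was above the highest Lck-Dlx5 lymphoma in all 4 tumors. Members of the phosphoinositide 3-kinase, Akt and mTOR pathway gave 0 calls in 25 tested, with 5 at an unadjusted p under 0.05 beside 20.8% of all genes. In this list 16 differences lay above 0, and the median difference was 0.16 beside 0.066 over all genes. The largest in it was Inpp4b, a phosphatase of phosphoinositides, at 6.38, 5.83 and 5.9 against 6.85, 6.23, 8.22 and 8.04 (1.3 ± 0.36, adjusted p = 0.0716). Genes that FoxO factors activate, which Akt restrains, gave 0 calls in 18 (4 at an unadjusted p under 0.05) with a median of 0.16. Il7r, the interleukin 7 receptor gene and the largest of them, lay at 7.24, 7.61 and 6.84 against 7.42, 10.07, 9.22 and 9.28 (1.77 ± 0.46, adjusted p = 0.065), with double transgenic replicate 1 inside the Lck-Dlx5 range.

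Surface receptors of T cells made up a further group. Cd226, an activating receptor of T and natural killer cells, lay at 5.7, 5.39 and 7.03 in the Lck-Dlx5 lymphomas and at 7.54, 7.73, 9.95 and 9.44 in the double transgenic tumors. Btla, an inhibitory receptor whose promoter held the run of TAATT, lay at 5.94, 5.85 and 5.89 against 7.69, 6.8, 9.11 and 9.15. In both, the tumors of line 86 were well above those of line 47, and the WT means were 8.66 and 8.64. The differences were 2.62 ± 0.55 (adjusted p = 0.0347) for Cd226 and 2.29 ± 0.44 (adjusted p = 0.0286) for Btla, which was the 1 called of 14 tested inhibitory and costimulatory receptors. Cxcr3, a chemokine receptor of effector T cells, lay at 6.92, 7.57 and 6.74 against 7.84, 8.55, 8.27 and 8.66, higher in both founder lines (1.25 ± 0.29, adjusted p = 0.0454), and was the 1 called of 19 chemokine receptors and adhesion molecules. The single calls of Btla and Cxcr3 in their lists stand beside 1.38% of all genes called higher. The 22 tested markers of mature T cells had 0 calls (4 at an unadjusted p under 0.05, beside 20.8% of all genes), with 19 above 0 and a median of 0.48. Their median over the Lck-Dlx5 mean was 0.03 and 0.07 in double transgenic replicates 1 and 2 and 0.92 and 1.16 in replicates 3 and 4. Samples were bulk tumors, and fewer cells of a type cannot be told apart from less RNA per cell.

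Antigen presentation and interferon genes had 1 call each, with differences above 0 in 11 of 13 and 17 of 18 tested members. Of all genes, 1.38% were called higher and 61.5% lay above 0. The medians over the Lck-Dlx5 mean were 0.04, 0.48, 0.84 and 1.22 for class I and II genes in double transgenic replicates 1 to 4 and 0.01, 0.4, 0.59 and 0.93 for interferon genes, so replicate 1 lay at the Lck-Dlx5 level in both. H2-Aa, the alpha chain of the class II molecule I-A, lay at 8.05, 7.97 and 7.08 in Lck-Dlx5 lymphomas and at 8.43, 8.9, 9.65 and 10.23 in double transgenic tumors (1.61 ± 0.38, adjusted p = 0.0459). It was the 1 called of 13 class I and II genes, whose median difference was 0.65. B cell and plasma cell markers moved in the same direction: 0 of 7 tested were called, 2 had an unadjusted p under 0.05 and 6 were above 0, with a mean level over 10 measured markers of 6.65 to 6.81 in Lck-Dlx5 and 6.76 to 7.56 in double transgenic tumors. Their part in the class II values was not tested. Ighm, the immunoglobulin heavy chain gene of B cells, lay at 11.19, 10.39 and 10.41 against 11.28, 11.49, 11.94 and 12.1 (1.04 ± 0.3, adjusted p = 0.0763). Stat2, which carries type I interferon signals to the nucleus, lay at 7.77, 7.93 and 7.76 against 8.49, 8.35, 8.68 and 8.7. All 4 double transgenic tumors were close together above the 3 Lck-Dlx5 lymphomas, and the difference of 0.73 ± 0.1 (adjusted p = 0.00858) was called under 7 of the 7 arrays left out in turn. It was the 1 called of 18 interferon response genes, whose median difference was 0.61. Nfkb2, the p100 subunit gene of NF-kB, lay at 7.59, 7.09 and 7.38 against 7.77, 8.09, 8.27 and 8.67 (0.84 ± 0.17, adjusted p = 0.0346), the 1 called of 18 genes of NF-kB and inflammation. Macrophage and dendritic cell markers gave 0 calls in 17 with a median of 0.06, and neutrophil markers 0 in 12 with a median of -0.02. They had 1 and 0 at an unadjusted p under 0.05, beside 20.8% of all genes.

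The smallest adjusted p values were shared by genes of quite different roles. Abcc1 encodes an export pump for glutathione conjugates and drugs. It lay at 6.35, 6.9 and 6.23 in Lck-Dlx5 lymphomas and at 8.21, 8.16, 7.93 and 7.97 in double transgenic tumors, where the 4 values lay close together. Its difference was 1.57 ± 0.18 (adjusted p = 0.00282). Xbp1, the transcription factor of the unfolded protein response, lay at 9.25, 9.42 and 9.18 against 10.21, 10.41, 10.06 and 10.52, beside 10.74 in WT, again a tight pair of groups (1.02 ± 0.11, adjusted p = 0.00282). Zfp975, a zinc finger gene, lay at 3.34, 3.85 and 2.85 against 5.47, 6.14, 6.67 and 6.47 (2.84 ± 0.36, adjusted p = 0.00455), all 3 Lck-Dlx5 values being among the dim ones of the array. Of the 10 genes at an adjusted p under 0.01, or 0.0773% of those tested, 9 were higher. Besides these and Sgk3 and Stat2 they were Dhdh, Fam210b, Hddc3 and Scamp1, with differences of 0.83, 0.96, 0.66 and 1.11, and the vomeronasal receptor gene Vmn2r113, which was lower at -1.07. Vmn2r113 exceeded the array median on the 3 Lck-Dlx5 arrays alone, so it entered the test only through the group in which it was high. Abcc1, Xbp1, Stat2, Sgk3, Zfp975, Heyl and Tnfaip8 were among the 18 genes that still passed without the WT arrays.

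Metabolic and survival genes added single calls, beside 1.38% of all genes called higher. Pfkfb3, which makes the activator of phosphofructokinase, lay at 7.53, 7.55 and 7.57 against 8.31, 8.03, 7.97 and 8.05, a small and even difference (0.54 ± 0.09, adjusted p = 0.0203), the 1 called of 18 glycolysis genes with a median of 0.18. Dhcr7, of the last step of cholesterol synthesis, lay at 8.15, 8.22 and 8.34 against 8.58, 8.85, 8.94 and 9.03 (0.61 ± 0.14, adjusted p = 0.0415), the 1 called of 20 sterol and fatty acid genes with a median of 0.19. Mcl1, an antiapoptotic member of the Bcl2 family, lay at 10.02, 10.19 and 9.9 against 10.32, 10.44, 10.58 and 10.81 (0.51 ± 0.11, adjusted p = 0.0428), the 1 called of 16 apoptosis genes. In each of these 3 genes all double transgenic values were above all Lck-Dlx5 values. The remaining large increases were of Sorl1, a sorting receptor, at 2.08, Prelid2 at 2.06, Ctnnd1, the p120 catenin gene, at 1.96, Igf2bp3, an RNA-binding protein of fetal and tumor tissue, at 1.85, Papss2, which makes the sulfate donor, at 1.8, and Decr2, a peroxisomal reductase of fatty acid breakdown, at 1.52. Ctnnd1 differed from most in its level outside these tumors: it lay at 8.2, 7.35 and 6.47 against 9.75, 9.47, 9.33 and 8.64, beside 6.78 in WT.

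**Figure D1:**
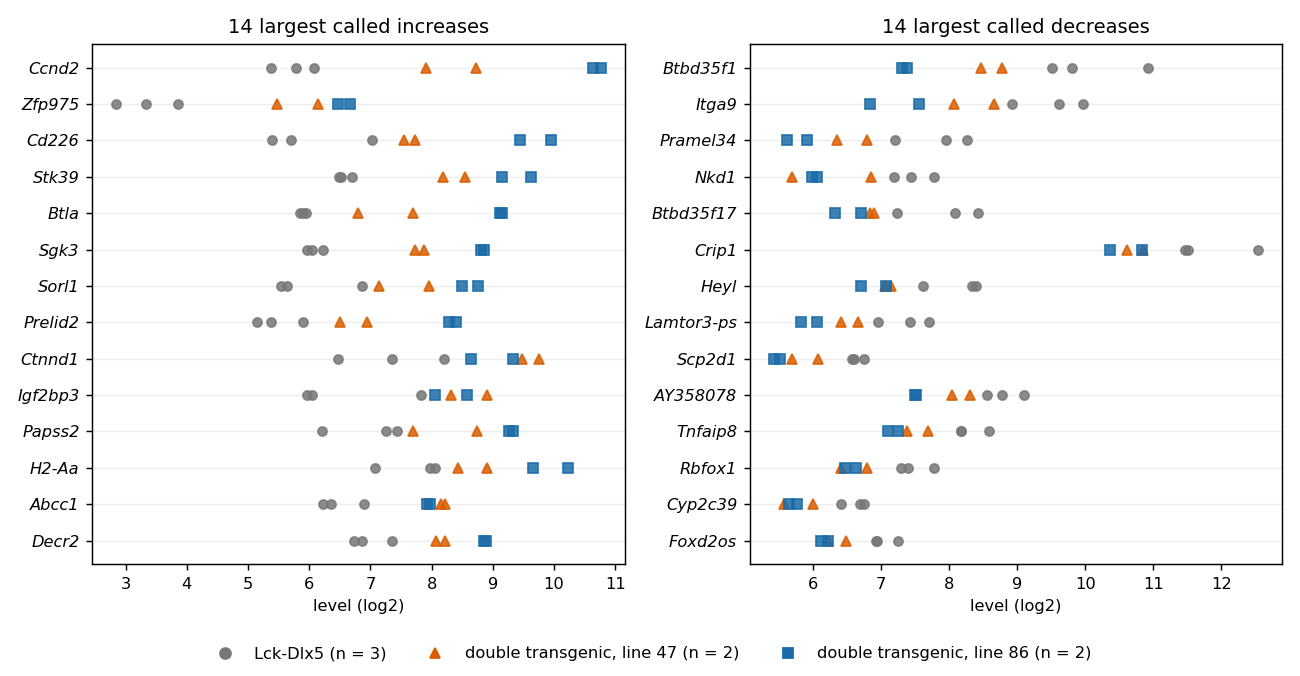
Level (log2) of the 14 largest called increases and the 14 largest called decreases, outside predicted genes, small RNAs, receptors of smell and the other classes left out, in each of the 7 tumors, 1 point per array: circles, Lck-Dlx5; triangles and squares, double transgenic of founder lines 47 and 86. The groups do not overlap, by the rule that chose the genes, and in Ccnd2, Cd226 and Btla the line 86 tumors stand highest.

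Among the genes called lower, 24 of 63 were named genes outside the classes of predicted genes, small RNAs and olfactory or vomeronasal receptors. Those classes made up 31.7%, 11.1% and 19% of the genes called lower, against 7.05%, 1.73% and 0.959% of all genes tested and 4.49%, 0% and 0% of the genes called higher. Of the 63, 33 had a mean level below 7, as did 39 of the 178 called higher, and the 3491 tested genes below that level had a median difference of 0.003. Genes entered the test if they exceeded the array median on at least 3 arrays, and 4 of the 63 did so on the Lck-Dlx5 arrays alone, which favours such a call, against 5 of all 12933. Of the 178 called higher, 2 did so on double transgenic arrays alone, against 12 of all 12933. Itga9, an integrin chain, lay at 9.62, 8.92 and 9.97 in the Lck-Dlx5 lymphomas and at 8.66, 8.07, 6.84 and 7.56 in the double transgenic tumors, beside 7.01 in WT. Heyl, a transcriptional repressor switched on by Notch, lay at 8.34, 7.62 and 8.39 against 7.06, 7.14, 7.07 and 6.7, beside 7 in WT. In both the double transgenic values reached down to the WT level, and the differences were -1.72 ± 0.34 (adjusted p = 0.0315) and -1.12 ± 0.17 (adjusted p = 0.0104). Heyl was the 1 called of 17 Notch pathway genes, beside 0.487% of all genes called lower, whose median difference was -0.21, and it passed under 7 of the 7 arrays left out in turn.

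Nkd1, which restrains Wnt signaling through Dishevelled, lay at 7.44, 7.19 and 7.78 against 5.7, 6.85, 5.99 and 6.06 (-1.32 ± 0.28, adjusted p = 0.0347). Crip1, a small LIM domain protein abundant in lymphoid cells, lay at 11.51, 11.46 and 12.54 against 10.61, 10.85, 10.37 and 10.84 (-1.17 ± 0.21, adjusted p = 0.0238), below the WT mean of 11.97 in all 4 tumors. Tnfaip8, induced by NF-kB and known to restrain cell death, lay at 8.18, 8.17 and 8.58 against 7.69, 7.38, 7.11 and 7.25 (-0.96 ± 0.14, adjusted p = 0.0104). For Crip1 and Tnfaip8 the double transgenic tumors of both lines were below all Lck-Dlx5 lymphomas and also below the WT mean. Lck-Dlx5 replicates 1 and 2 were below the WT mean for both genes too, the WT mean of Tnfaip8 being 8.5, and replicate 3 was above it. The other 9 of the 14 largest decreases, from Btbd35f1 at -2.1 to Foxd2os at -0.78, included Pramel34, Btbd35f17, Lamtor3-ps, Scp2d1, AY358078, Rbfox1 and Cyp2c39. Btbd35f1, Btbd35f17 and Pramel34 belong to multigene families and Lamtor3-ps is a pseudogene, so near-identical copies may share their probes and these values are uncertain.

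The double transgenic tumors also differed among themselves. In the comparison of the 2 tumors of line 47 with the 2 of line 86, 554 genes were called, or 4.28%, with 202 higher and 352 lower in line 47, and a difference of at least 1 was seen in 629 genes. The comparison with Lck-Dlx5 had 320 such genes, but a mean of 2 arrays varies more than a mean of 4 or 3. Arrays of the line 47 pair correlated at 0.958 and of the line 86 pair at 0.98, and across the lines at 0.909 to 0.948. Line 47 tumors correlated at 0.941 to 0.963 with Lck-Dlx5 lymphomas and at 0.866 to 0.911 with WT, while line 86 tumors correlated at 0.912 to 0.928 and at 0.927 to 0.935. Founder line, the sex transcripts Xist and Kdm5d and the kind of sample code divided the 4 tumors the same way and cannot be told apart. The Akt2 line of the line 86 tumors is not given. The count also rests on the rest of the series and on single arrays, with 130 genes called from the 7 arrays alone, 158 without WT, and 80 to 728 when 1 double transgenic array was left out.

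The genes most different between the lines were chosen after their values were seen. In many of them 1 line lay apart from both the other line and the Lck-Dlx5 lymphomas, but not in all. Mitf lay at 9.94 and 9.02 in line 86 and at 9.64 in the Lck-Dlx5 lymphoma of that line. Bnc1 lay at 8.57 and 8.15 in line 47 and at 8.01 in the Lck-Dlx5 lymphoma of that line. Calb2, the calcium-binding protein calretinin, lay at 10.91 and 8.72 in line 47 and at 4.16 and 5.06 in line 86 (a difference of 5.2, adjusted p = 0.0235), with Lck-Dlx5 lymphomas at 7.02, 7.36 and 5.79 between them. Il10, an anti-inflammatory cytokine gene, lay at 7.29 and 8.94 against 5.18 and 5.75. Cd5, which dampens T-cell receptor signals, lay at 9.7 and 7.36 in line 47 and at 11.8 and 11.67 in line 86, with Lck-Dlx5 lymphomas at 9.66, 7.55 and 10.24 (-3.21, adjusted p = 0.0437). Line 86 tumors were near the WT level of 11.3 for Cd5, and the others varied widely below it. Lrrc3b lay at 6.7 and 5.82 against 9.39 and 9.04 (-2.96, adjusted p = 0.000145), with all 3 Lck-Dlx5 lymphomas between 5.79 and 6.28 and WT at 5.59, so it was high in line 86 tumors alone among the tumors with the Dlx5 transgene. Csn2, the beta casein gene, behaved likewise, at 5.74 and 5.2 against 7.89 and 9 (-2.98, adjusted p = 0.00264). Lrrc3b exceeded the array median on double transgenic arrays alone, so it entered the test only through the group that holds its high values.

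**Figure D2:**
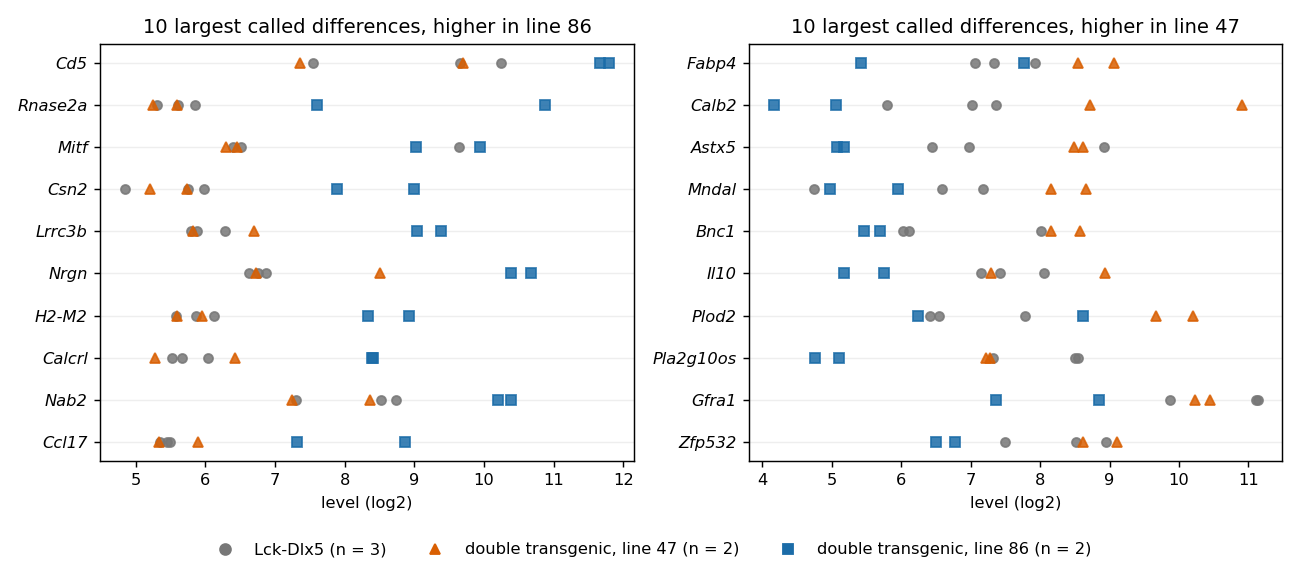
Level (log2) of the 10 largest called differences in each direction between double transgenic tumors of founder lines 47 (triangles) and 86 (squares), with the 3 Lck-Dlx5 lymphomas as circles, 1 point per array. Calb2 lies at 10.91 and 8.72 in line 47 and at 4.16 and 5.06 in line 86.

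Gene lists divided along the same line. Of 34 tested genes of S phase and mitosis, 0 were called between the double transgenic and Lck-Dlx5 groups. An unadjusted p under 0.05 was seen in 9, beside 20.8% of all genes. All 34 differences were below 0 and their median was -0.27. The median over the Lck-Dlx5 mean was -0.01 and 0.02 in the line 47 tumors and -0.52 and -0.52 in the line 86 tumors, so the lower group value came from line 86. Between the lines 13 of the 34 were called higher in line 47, beside 1.56% of all genes, among them Mcm2, Mcm6 and Cdc6 of replication origins (0.55, 0.67 and 0.89), Rrm2 of nucleotide reduction (0.57) and the mitotic kinase gene Aurkb (0.73). Aurkb lay at 10.54, 11.2 and 10.94 in Lck-Dlx5 lymphomas and at 10.76, 10.9, 10.08 and 10.13 in double transgenic tumors, beside 10 in WT.

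Glycolysis showed the same split in the other direction from Lck-Dlx5. Its 18 tested genes had a median of 0.57 and 0.51 over the Lck-Dlx5 mean in the line 47 tumors and of -0.19 and -0.01 in those of line 86, and 9 of 18 were called higher in line 47, with Slc2a1, the glucose transporter gene, at 1.08, Tpi1 at 0.93, Pkm, of pyruvate kinase, at 0.74 and Ldha, of lactate dehydrogenase, at 0.49. Ldha lay at 9.29, 8.92 and 9.12 in Lck-Dlx5 lymphomas and at 9.73, 9.64, 9.16 and 9.23 in double transgenic tumors. Sterol and fatty acid synthesis had medians of 0.33 and 0.77 against -0.17 and -0.1, with Hmgcs1 and Acaca called higher in line 47 (1.47 and 0.97). Nucleotide, serine and one-carbon synthesis had 4 of 17 called higher in line 47, and Myc and its targets 4 of 21. The counts of these lists and of glycolysis and sterol genes stand beside 1.56% of all genes called higher in line 47. Asns, the asparagine synthetase gene, was higher in line 47 by 2.07 (adjusted p = 0.0391).

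Genes of mature and activated T cells ran the other way. Of 22 mature T-cell markers, 4 were called lower in line 47 than in line 86 (Il2rb, Cd6, Icos and Cd40lg, by -1.79, -2.42, -1.42 and -1.97), beside 2.72% of all genes. Of 18 immediate early genes, 4 were called lower in line 47, with Egr1 at -2.32 and Egr2 at -1.31, both transcription factors induced by antigen receptor signals. Egr2 lay at 6.63, 6.44 and 6.75 in Lck-Dlx5 lymphomas and at 6.71, 6.76, 8.07 and 8.02 in double transgenic tumors, beside 8.14 in WT, so that the line 86 tumors alone were near WT. Chemokine receptors and adhesion molecules had 4 of 19 called lower in line 47, interleukin receptors and Stat genes 4 of 25, NF-kB genes 3 of 18 (Rel, Nfkbie and Ltb) and interferon genes 2 of 18 (Xaf1 and Trim30a). Within the phosphoinositide 3-kinase list the calls went both ways: Pik3cb and Igf1r were higher in line 47 (1.02 and 1.75), and Pik3cd, Akt2, Inpp5d and Inpp4b were lower (-1.34, -0.48, -0.64 and -1.6). B cell markers had 0 of 7 called between the lines (2 at an unadjusted p under 0.05), with a median of -0.63. Among markers of other cell types, Col1a2 of fibroblasts, Pecam1 of endothelium and Xcr1 of dendritic cells were called lower in line 47 (-1.63, -1.06 and -1) and Fabp4 of adipocytes higher (2.21). Thymic epithelium markers had 0 of 10 called, 6 at an unadjusted p under 0.05 and a median of -0.45. The part of these cell types in the differences between the lines was not tested.

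Replication-dependent histones and linker histones had 1 of 23 called between double transgenic and Lck-Dlx5 tumors, the linker histone gene H1f10 at 0.99, with a median of -0.31 over the list. Further lists with 0 calls included the double-negative stage (12 tested), the double-positive stage (17), T-cell receptor signaling (18), Myc and its targets (21), mitochondrial respiration (16), p53 targets (14), DNA repair (16), heat shock genes (11) and Polycomb and DNA methylation genes (19). At an unadjusted p under 0.05 these lists held 1, 2, 2, 1, 0, 3, 3, 5 and 6 genes, beside 20.8% of all genes. Heat shock genes had a median of 0.3, with Hspa1a at 6.94, 5.78 and 6.27 against 8.27, 8.16, 6.81 and 7.2 (1.28 ± 0.37, adjusted p = 0.0763), highest in line 47. Over all lists and markers together, 11 of 563 distinct genes were called between the groups, 10 of them higher. Of all genes tested, 1.86% were called and 1.38% were called higher. Markers of fibroblasts and endothelium had 0 of 10 called (1 at an unadjusted p under 0.05) and a median of -0.14, led by Pdgfrb, a receptor of mural cells, which was high in Lck-Dlx5 replicate 2 (7.31, 10.75 and 7.34 against 5.76, 7.23, 6.14 and 5.89).

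**Figure D3:**
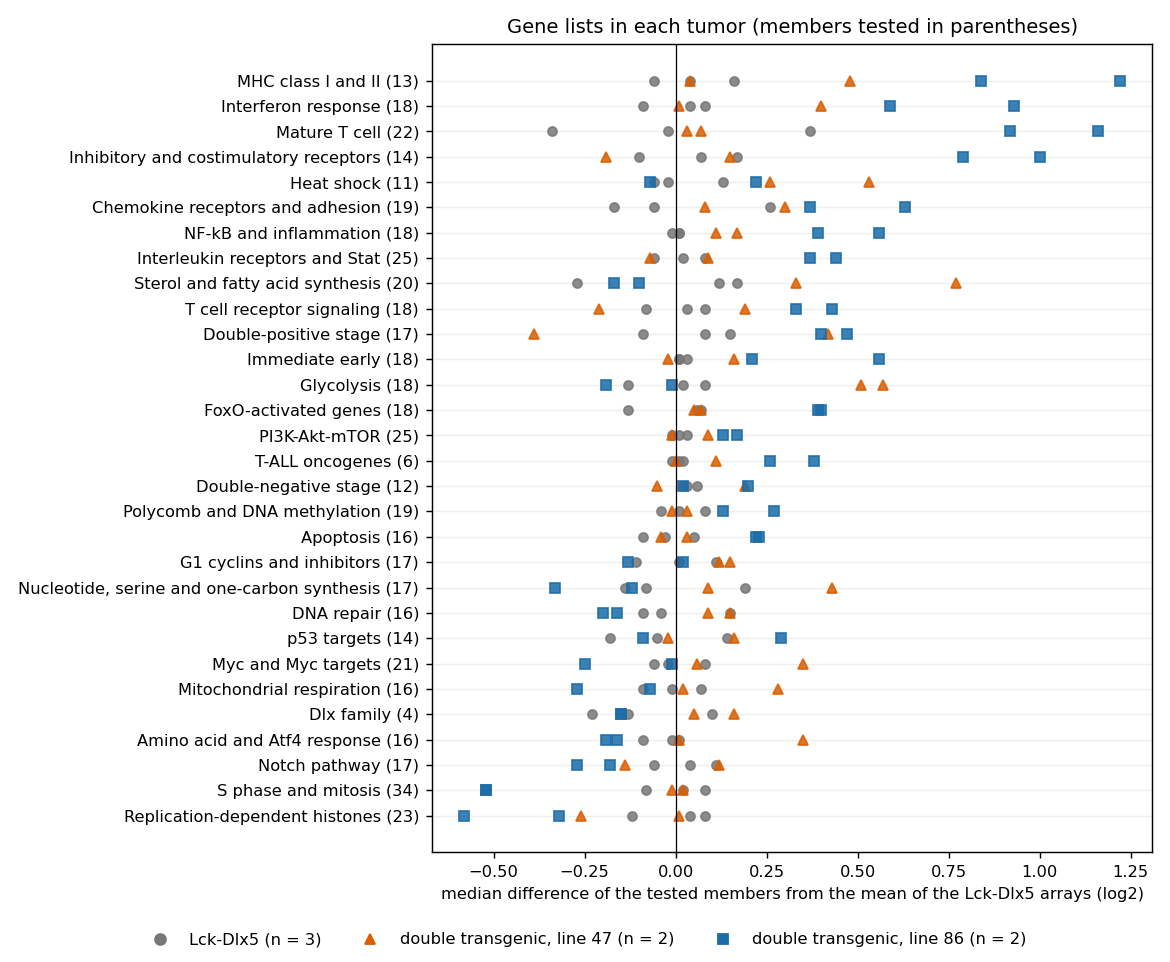
Median difference (log2) of the tested members of each of 30 gene lists from the mean of the Lck-Dlx5 arrays, 1 point per tumor, with the number of members in parentheses. Mature T-cell genes lie at 0.92 and 1.16 in line 86 tumors and at 0.03 and 0.07 in line 47 tumors, and S phase and mitosis genes at -0.52 in both line 86 tumors.

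Whether the difference between double transgenic and Lck-Dlx5 tumors depended on founder line could be asked because lines 47 and 86 each had 1 Lck-Dlx5 array. The interaction of the 2 was called for 52 genes, or 0.402%, of which 23 had a higher value in line 47 (0.178%) and 29 a lower one (0.224%), and for 0 genes when only the 7 arrays were fitted (1476 with an unadjusted p under 0.05). It rests on a single Lck-Dlx5 tumor per line. Slc7a11, the cystine transporter gene, lay at 5.1, 11.3 and 4.93 in Lck-Dlx5 replicates 1 to 3 and at 5.18, 5.07, 7.08 and 5.89 in the double transgenic tumors, so that its difference of -7.72 (adjusted p = 4.33e-05) came from the high value of Lck-Dlx5 replicate 2. With founder line as a term in the main comparison, 1 gene was called, Bmyc, a relative of Myc (2.38, adjusted p = 0.0238), and with founder line as a random block 0 were called and 1944 had an unadjusted p under 0.05. The Dlx5 founder line is known only for the 7 arrays compared, which gave 0 calls without it. Against the double transgenic tumors of line 47 alone 17 genes were called, and against those of line 86 alone 1932.

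**Figure D4:**
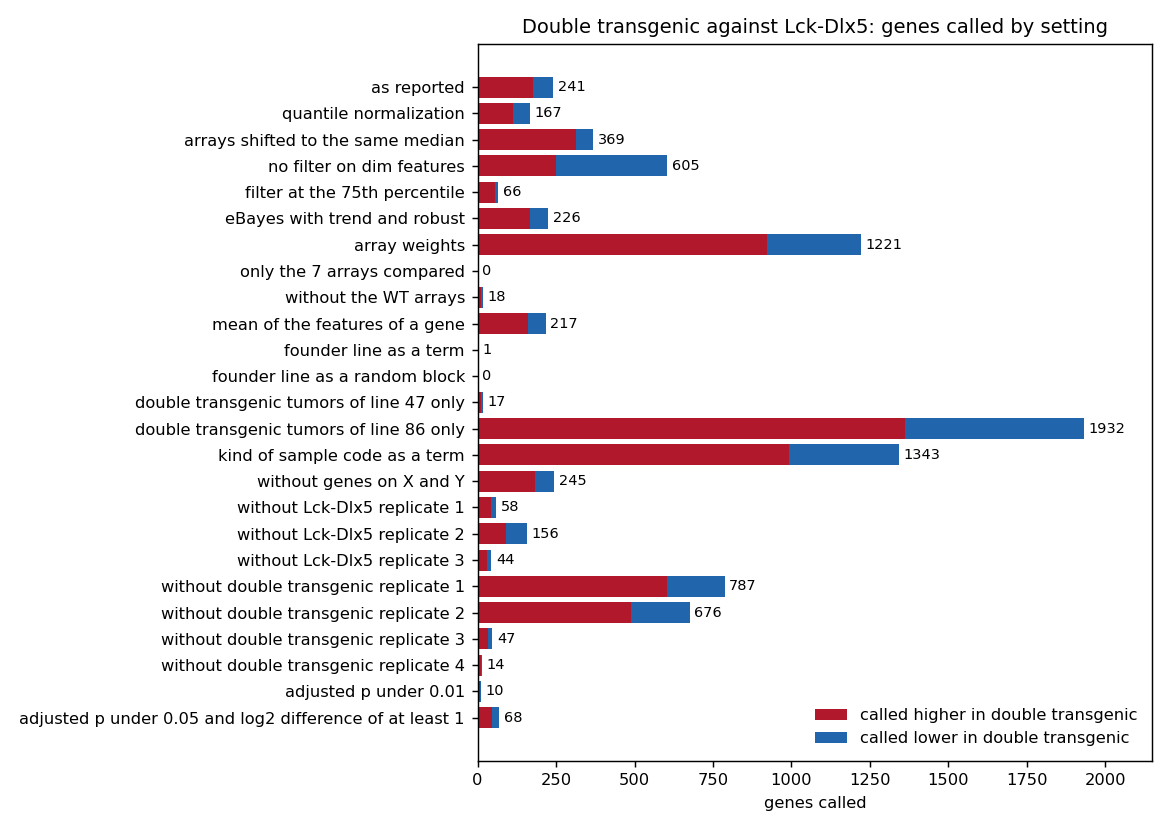
Genes called between double transgenic tumors and Lck-Dlx5 lymphomas under each way of processing, as bars that start at 0, split into higher and lower, with the total beside each bar. The total was 241 as reported, 0 with only the 7 arrays compared and 1932 with the double transgenic tumors of line 86 only.

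Of chromosomes 1 to 19 and X, chromosome 15 had the lowest median difference between the groups. It was -0.052 over 538 tested genes, which was 0.118 below that of all genes when computed from the fit. Relative to all genes of the same array, the chromosome 15 median was -0.108, 0.117 and -0.014 in the Lck-Dlx5 lymphomas and -0.149, -0.062, -0.108 and -0.133 in the double transgenic tumors. The spread of the Lck-Dlx5 lymphomas was as wide as the difference, with replicate 2 high and replicate 1 as low as the double transgenic tumors. An exact permutation test of the 4 against the 3 arrays gave p = 0.114 two-sided and 0.49 after adjustment over the 20 chromosomes tested, in a design that cannot go below 0.0571. The 10 tested mitochondrial genes lay at 0.021, 0.002 and -0.014 in Lck-Dlx5 lymphomas and at -0.139, -0.179, -0.131 and -0.195 in double transgenic tumors, which did not overlap (p = 0.0571 by the same exact test, the smallest it allows, not in the family of 20).

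**Figure D5:**
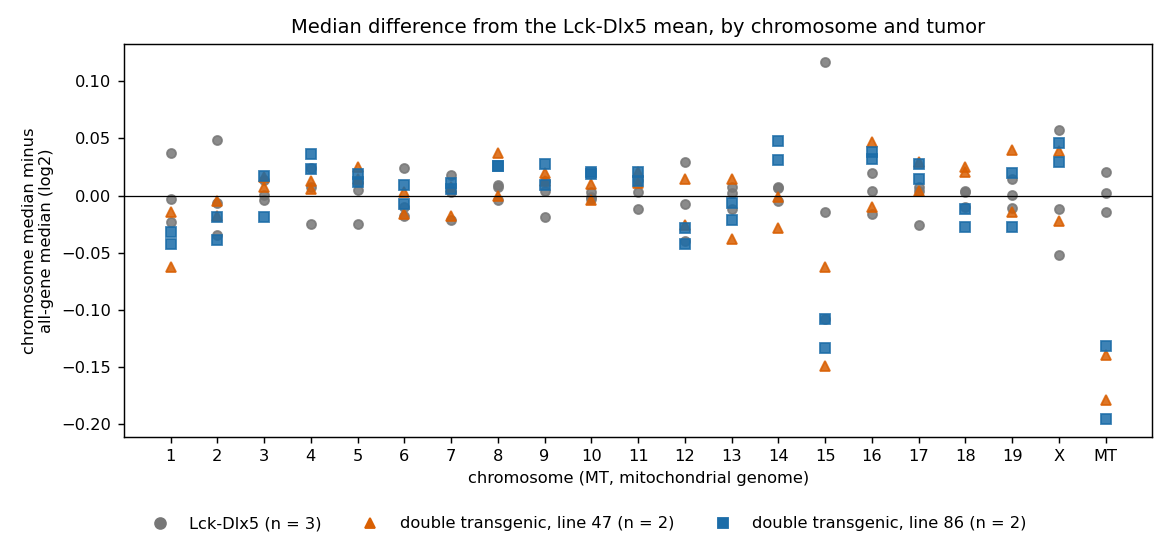
Median difference from the Lck-Dlx5 mean of the tested genes of each chromosome, minus that of all genes of the same array (log2), 1 point per tumor; the Y chromosome is left out. Chromosome 15 lies between -0.149 and -0.062 in the double transgenic tumors and between -0.108 and 0.117 in the Lck-Dlx5 lymphomas.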

How the data were processed

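RNA was extracted with Trizol from primary thymic tumors and WT thymic T cells and hybridized to Mouse Gene 2.0 ST whole-transcript arrays of Affymetrix. The deposited log2 values come from the authors, whose labels name Affymetrix Expression Console; the summary method and version are not given in the sources used here. The paper's methods name no test.

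Of 41345 features, 23525 name 1 gene, 1816 several and 16004 none; only the first were used, with the brightest feature per gene (22184 genes). A gene was tested when above the array median on at least 3 arrays (12933). limma 3.58.1 in R 4.3.3 fitted 1 mean per group over all 16 arrays (lmFit, eBayes, Benjamini-Hochberg, called at an adjusted p under 0.05). The number of arrays limits the precision, and p-values rest on a spread pooled over all 16 arrays, not over the tumors compared alone. The median SD of a gene was 0.086 in WT, beside 0.181 in Lck-Dlx5 and 0.207 in double transgenic samples. With only the 7 arrays compared, 0 genes passed. On simulated data for this comparison over 12933 genes, 82 of 100 genes changed by 1 and 97 of 100 changed by 2 (log2) were recovered, and 4 unchanged genes were called. These rates describe the simulated data only. In the deposited data 320 genes differed by at least 1, and 68 of them were called. Exact permutation tests over the 4 and 3 arrays (35 regroupings) cannot go below 0.0571.

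The groups compared, the members and the gene lists were chosen with earlier results of these data known. Genes named are those the study names, the 14 called genes of largest difference in each direction with no overlap between groups (leaving out small RNAs, predicted genes, vomeronasal or olfactory receptors, sex transcripts and segments of antigen receptors), and up to 4 called members per list or else the 2 largest. Genes named between founder lines (10 each way and the 6 largest interactions), other list members named between founder lines, genes at an adjusted p under 0.01, and Bmyc were chosen after their values were seen. Alternatives were quantile normalization, a shift to the same median, 2 other filters on dim features, the mean of a gene's features, eBayes with trend and robust, array weights, fewer arrays, founder line or kind of sample code as a term, stricter thresholds, and leaving out each array.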

Additional observations from a re-analysis of the deposited data

Results flagged for a closer look

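Limma's interaction term of genotype with founder line passed for 52 genes in the fit of all 16 arrays and for 0 with only the 7 arrays fitted. Its largest values, the double transgenic minus Lck-Dlx5 difference of line 47 minus that of line 86, were -7.72 for Slc7a11, -4.81 for Ryr2, -4.27 for Olig3, 3.54 for Pla2g10os, 3.53 for Prag1, -3.41 for H2-M2 and -3.36 for Lrrc3b. Each line had 1 Lck-Dlx5 array, so each of these values rests on single arrays. Ryr2, a calcium release channel gene, lay at 9.14 in the Lck-Dlx5 lymphoma of line 47 and at 6.26 and 6.27 in the other Lck-Dlx5 lymphomas. In the double transgenic tumors it lay at 6.76 and 6.36 in line 47 and at 8.55 and 8.45 in line 86. Olig3, a transcription factor of neural progenitors, lay at 8.17, 9.69 and 7.7 in Lck-Dlx5 lymphomas and at 5.89, 5.49, 7.77 and 8.19 in double transgenic tumors. H2-M2 and Lrrc3b were high in the double transgenic tumors of line 86 and low in the Lck-Dlx5 lymphoma of the same line. Lrrc3b entered the test only through double transgenic arrays.

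One array lay apart from the other 3 of the double transgenic group for 2 of 127 genes examined, by Dixon's 95% critical value for 4 samples, which chance passes in about 1 of 20 groups. Dlx2, a gene of the same homeobox family as Dlx5, lay at 10.11 in replicate 2 and at 6.8, 7.13 and 7.35 in the others, with a gap of 0.831 of the range. Retnlg, a neutrophil marker, lay at 6.2 in replicate 2 against 5.34 to 5.47, with a gap of 0.842 of the range.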

How the results depend on the processing

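The count of 241 genes called between double transgenic and Lck-Dlx5 tumors moved with most alternatives. It was 369 with arrays shifted to the same median, 605 with no filter on dim features (251 higher and 354 lower), 66 with a filter at the 75th percentile, 1221 with array weights, 0 with only the 7 arrays, 18 without WT, 1 with founder line as a term, 0 with founder line as a random block, 17 and 1932 with double transgenic tumors of line 47 or line 86 only, and 1343 with the kind of sample code as a term. The founder settings are to be read beside the 0 of the 7 arrays, since the Dlx5 founder line is known only for these. Stricter thresholds left 10 genes at an adjusted p under 0.01 and 68 with a difference of at least 1, and leaving out 1 array gave 14 to 787. Quantile normalization (167), trend and robust (226), feature means (217) and no X and Y genes (245) stayed within 1.5 times. The 28 genes of largest change kept their direction in every setting that tested them. The count between founder lines was 130 with only the 7 arrays, 158 without WT and 80 to 728 with 1 array left out; the interaction count was 0 with the 7 arrays, an alternative chosen after seeing the data. List members called were 7 with quantile normalization, 4 with the 75th percentile filter, 62 with array weights, 0 with the 7 arrays, 2 without WT, 0 with either founder setting and 2 to 42 with 1 array left out, the last chosen after seeing the data. The chromosome 15 difference was -0.062 with no filter and -0.152 with the 75th percentile filter, against -0.111.

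Genes that were not called changed sign in some settings. With line 47 only these were Hes1 (0.46), Tnf (-0.07), Lats2 (-0.05), Ptcra (0.63), Cd5 (-0.62), Mef2c (-0.12), Dlx2 (0.49), Shmt1 (0.07), Cad (0.09) and Col1a2 (-0.31), and with line 86 only Ccnd1 (-0.39), Fas (0.13), Trat1 (0.56) and Fabp4 (-0.85). Array weights gave Ccnd1 (-0.14), Fas (0.13) and Fabp4 (-0.08), quantile normalization Ccnd1 (-0.01), founder line as a term Ccnd1 (-0.06), and sample code Fas (0.06), Trat1 (0.53) and Fabp4 (-0.43). With 1 array left out the range was -0.91 to 0.06 for Hes1, -0.18 to 0.31 for Ccnd1, -0.58 to 0.17 for Fas, -0.07 to 1.36 for Prkcq, -0.87 to 0.31 for Dlx2, -2.4 to 0.79 for Slc7a11, -1.03 to 0.27 for Trat1 and -0.19 to 1.02 for Fabp4. Where no value shows it, the cause was not tested. No paired analysis was possible because the tumor labels share no replicate numbers between groups; founder line, shared by some, was the block given above. Exact permutation of 4 against 3 arrays cannot pass 0.05. Age goes with the groups, and the sex transcripts Xist and Kdm5d and the sample code go with founder line.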

Other observations

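Lysosomal genes and genes of the unfolded protein response were gathered from textbook knowledge after called members of both had been seen, so their counts are a description and no test. Of 42 tested lysosomal genes, 6 were called higher in the double transgenic tumors and 0 lower, 38 lay above 0 and the median difference was 0.21, beside 1.38% of all genes called higher, 0.487% called lower, 61.5% above 0 and a median of 0.066. The medians over the Lck-Dlx5 mean were 0.08 and 0.35 in line 47 tumors and 0.14 and 0.4 in line 86 tumors, so both lines lay on the same side. The 6 were Cln3, Tpp1, Ppt1, Idua, Atp6v1b2 and Glmp. Cln3, a lysosomal membrane protein gene, lay at 8.04, 7.93 and 7.83 in Lck-Dlx5 lymphomas and at 8.48, 8.75, 9.75 and 9.49 in double transgenic tumors (1.18 ± 0.24, adjusted p = 0.0343). Idua, an enzyme of glycosaminoglycan breakdown, lay at 7.61, 7.64 and 7.43 against 8.18, 8.04, 8.65 and 8.68.

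Of 21 tested genes of the unfolded protein response, 2 were called higher, Xbp1 and Ero1a, an oxidase of disulfide formation, and 18 lay above 0, with a median of 0.36, against the same shares of all genes (1.38% called higher, 0.487% lower). Ero1a lay at 10.48, 10.02 and 10.22 against 10.82, 10.87, 10.79 and 11 (0.63 ± 0.13, adjusted p = 0.0357). Genes with Zfp and a number as their symbol, mostly zinc finger genes, were 13 of 178 genes called higher, or 7.3%, 1 of 63 called lower, or 1.59%, and 284 of 12933 tested, or 2.2%.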
